A study of Homo sapiens with 24 samples.

Results

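The autophagy genes ULK1, ATG14, WIPI1, ATG2A, ATG16L1, MAP1LC3B, GABARAPL1, SQSTM1, NBR1 and BNIP3L were taken by symbol from the table of raw counts. They are 10 of 26645 gene entries, and all 10 were among the 14741 genes with enough reads to be tested. RNA was measured in 24 libraries of MB468 (the established line MDA-MB-468, triple-negative cells of a breast metastasis) and of MB468res-R8, with 3 libraries in each of 8 groups. MB468 cells stop proliferating when methionine (Met) is replaced by its precursor homocysteine (Hcy), whereas MB468res-R8, a clone obtained from MB468 by long culture in Hcy medium, proliferates there. Both lines were sampled at 0 h in medium with 100 µM Met (Met+) and at 0.5, 2 and 12 h after a switch to medium with 370 µM DL-homocysteine and no Met (Met-Hcy+). The medium of every group also held dialyzed serum, vitamin B12, glutamine and cysteine.

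Autophagy encloses cytoplasm in a double membrane and delivers it to the lysosome, and it is known as a response to a shortage of amino acids. A kinase complex containing ULK1 starts the process, a lipid kinase complex marks the membrane with phosphatidylinositol 3-phosphate (PI3P), and PI3P-binding and lipid-transfer proteins let the membrane grow. Proteins of the ATG8 family, such as MAP1LC3B and GABARAPL1, are then attached to the membrane and hold receptors such as SQSTM1 with their cargo. RNA levels of these genes are not a measure of how much material reaches the lysosome, since many of the proteins are degraded along with the cargo.

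The switch to Hcy was not paired with cells kept in Met+ medium for 0.5, 2 or 12 h, so the effects of Hcy, of the change of medium and of time in culture cannot be told apart in either line. MB468res-R8 was 1 clone, and a difference between the lines cannot be told apart from a difference of that clone. The labels number 3 replicates per group without saying that they came from separate cultures, so the p-values measure the spread between these samples, which may be technical. In bulk RNA, fewer cells of a state and less RNA per cell cannot be told apart.

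The libraries held 11713037 to 36402932 gene counts. All 6 epithelial markers were at 255 or more CPM (the share of a library's gene counts scaled to a common total) in every library, lowest in CDH1. Of 3 markers of basal breast lines EGFR and KRT5 were at 1540 CPM or more, while KRT6A ran from 0.423 to 42.0 CPM. Of the receptors low in triple-negative lines, PGR reached at most 0.0983 CPM and ESR1 ran from 4.15 to 22.6 CPM. All 3 leukocyte markers were at 0.199 CPM or less, 3 endothelial ones at 2.7 or less, and 3 of 4 fibroblast ones at 0.656 or less, with COL1A1 at 14.6 to 73.2 CPM. Replicate 2 of MB468 at 2 h stood apart in RNAs without a poly(A) tail, with 8251 counts of RN7SK against at most 357 in any other library, so the 2 h calls are also given without it. Values are normalized counts, scaled by edgeR's TMM factors, which assume that most genes do not change. ERCC spike-ins made up 0.201 to 0.303% of counts, and scaling to them moved the all-gene median of log2 fold changes to -0.20, -0.42 and -0.23 at 0.5, 2 and 12 h in MB468, to 0.04, -0.04 and 0.00 in MB468res-R8, and to -0.31 between the lines at 0 h. Whether spike-ins were added per cell or per amount of RNA is not given in the sources used here, so whether these shifts follow RNA per cell cannot be told. A gene is said to have risen, fallen or been called where its Benjamini-Hochberg adjusted p in edgeR's quasi-likelihood test, taken over all 14741 genes, was under 0.05.

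On GRCh38 (GENCODE annotation), ULK1 lies on chromosome 12 at 131894622-131923150, ATG14 on chromosome 14 at 55366391-55411830, WIPI1 on chromosome 17 at 68420948-68457513, ATG2A on chromosome 11 at 64894546-64917209 and ATG16L1 on chromosome 2 at 233210051-233295674. MAP1LC3B lies on chromosome 16 at 87383953-87404779, GABARAPL1 on chromosome 12 at 10212458-10223128, SQSTM1 on chromosome 5 at 179806398-179838078, and NBR1 on chromosome 17 at 43170481-43211689. The library kit did not keep the strand, so reads from a gene and from an opposite-strand neighbour that shares exon sequence cannot be told apart. Such overlap covered 24.4% of the exon bases of WIPI1 (with ARSG), 21.0% of those of SQSTM1 (with MRNIP) and 20.8% of those of ATG14 (with FBXO34). It covered 8.12% or less in MAP1LC3B, GABARAPL1, NBR1 and BNIP3L for any single neighbour, and no overlap was annotated for ULK1, ATG2A and ATG16L1. MAP1LC3B also has a near-identical copy, MAP1LC3B2, and GABARAPL1 has GABARAPL3, whose values did not exceed 5.77 normalized counts.

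Sequences before the transcription start are shown for the 3 genes with the lowest 12 h fold changes in MB468res-R8 and for the 1 called higher there. They set those responses beside the DNA next to the start. They are the 250 bases upstream of the start in RefSeq (GRCh38.p14), read 5′ to 3′ on the gene's strand, for ULK1 at chr12:131894372-131894621 (plus strand), WIPI1 at chr17:68457497-68457746 (minus strand, with 17 bases inside an annotated exon) and ATG14 at chr14:55411831-55412080 (minus strand). For GABARAPL1, 168 bases of the window lie in its own annotated exons, and 26 bases at chr12:10212838-10212863 (plus strand) are shown. All 26 lie in annotated exons of the gene. Capitals mark a CACGTG E-box in ATG14 and a TGACGTCA cAMP response element in GABARAPL1.
ULK1: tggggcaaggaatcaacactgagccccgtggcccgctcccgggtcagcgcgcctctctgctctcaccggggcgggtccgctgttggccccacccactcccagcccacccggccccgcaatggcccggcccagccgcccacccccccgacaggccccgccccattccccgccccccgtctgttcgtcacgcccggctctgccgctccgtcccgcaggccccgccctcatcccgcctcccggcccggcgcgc
WIPI1: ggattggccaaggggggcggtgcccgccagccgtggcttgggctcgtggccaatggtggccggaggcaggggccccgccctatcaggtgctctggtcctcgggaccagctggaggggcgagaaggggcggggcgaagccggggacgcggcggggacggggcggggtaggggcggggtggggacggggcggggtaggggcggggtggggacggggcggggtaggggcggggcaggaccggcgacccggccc
ATG14: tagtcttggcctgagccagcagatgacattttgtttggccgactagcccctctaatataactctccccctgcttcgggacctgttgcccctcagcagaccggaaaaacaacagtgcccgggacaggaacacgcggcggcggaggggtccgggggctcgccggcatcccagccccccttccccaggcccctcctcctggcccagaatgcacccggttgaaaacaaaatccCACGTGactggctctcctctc
GABARAPL1: ctcgcggggTGACGTCAcagcccgac

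RefSeq windows were found for 9 of the 10 genes, all but BNIP3L, and were searched on both strands from 250 bases before to the base before the start. SQSTM1 and NBR1 had more than 1 window, and each was searched, whereas the share of all windows took 1 per gene. All 250 bases for MAP1LC3B and 102 for ATG16L1 lay in annotated exons of the gene, as did 79 in 1 window of SQSTM1 and 12 in 1 of NBR1. CACGTG, the core of the site of the TFEB and MITF family, was present in 1 of the 9 (ATG14, 21 to 16 bases before the start) and in 6.49% of 27305 promoter windows. TGACNNNGC, the core of the antioxidant response element, was present in 1 of the 9 (MAP1LC3B) and in 11.0% of all windows. TGATGNAA, an amino acid response element, and GTAAACA, a forkhead site, were in none of the 9, against 3.19% and 2.98% of all windows. TGACGTCA, added to the search after the GABARAPL1 sequence had been seen, was in that gene 30 to 23 bases before the RefSeq start and in 1.77% of all windows. In GABARAPL1 it lay in annotated exon sequence of the gene. ULK1 and WIPI1 held none of the 5 motifs in these windows.

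At 0 h the 10 genes covered a wide range of levels. Per kilobase of exon, SQSTM1, the receptor that links ubiquitinated cargo to the ATG8 proteins, was the highest in both lines, at 108 ± 3.64 CPM per kb in MB468 (SD, n = 3) and 84.2 ± 3.03 in MB468res-R8. MAP1LC3B followed at 26.8 ± 1.41 and 26.6 ± 1.78 CPM per kb, and BNIP3L at 15.8 ± 0.359 and 15.1 ± 0.489. ATG14 was the lowest, at 2.48 ± 0.159 and 1.99 ± 0.105 CPM per kb, so that SQSTM1 exceeded it 43.6-fold and 42.3-fold. The steps from SQSTM1 to MAP1LC3B and from MAP1LC3B to BNIP3L, and the step down to ATG14, were free of overlap between libraries in both lines. In MB468 the neighbours NBR1 and WIPI1, WIPI1 and ATG16L1, ATG16L1 and GABARAPL1, and ATG2A and ULK1 overlapped in their libraries. In MB468res-R8 ATG16L1 overlapped NBR1, and ATG2A overlapped both GABARAPL1 and ULK1.

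**Figure D1:**
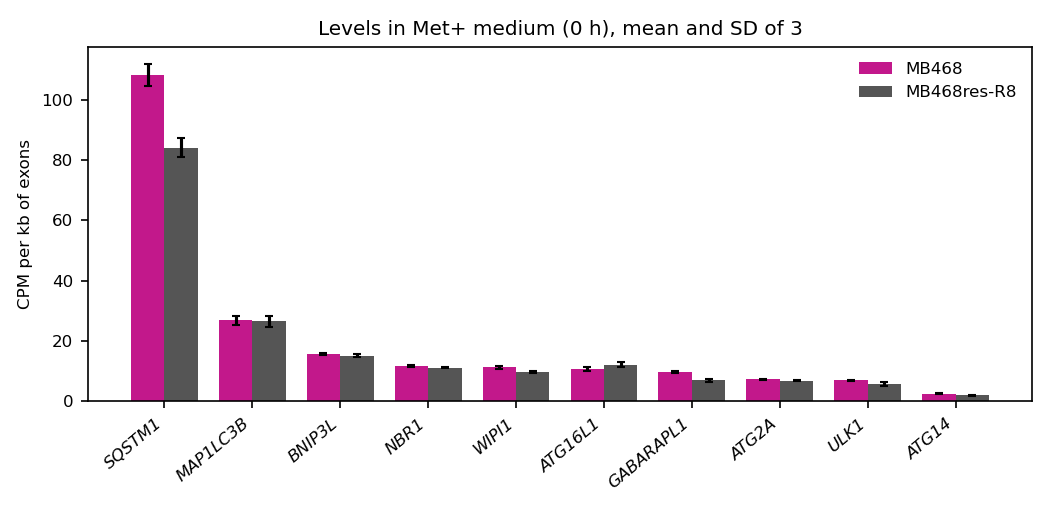
Level of each gene in Met+ medium (0 h), in CPM per kb of exon, for MB468 (magenta) and MB468res-R8 (gray). Bars are means and whiskers SD of 3 libraries, and SQSTM1 at 108 and 84.2 CPM per kb stands above the other 9 genes.

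Between the lines at 0 h, 5 of the 10 genes were lower in MB468res-R8 and 1 was higher, where 53.5% of all genes tested were called, 26.4% higher and 27.1% lower. The libraries of the lines did not overlap for 6 of the 10, against 60% of all genes. GABARAPL1 was lower, with 688, 624 and 616 normalized counts in MB468res-R8 against 867, 869 and 933 in MB468 (log2 fold change -0.46 ± 0.07 SE, adjusted p = 2.53e-07). SQSTM1 was lower too (log2 fold change -0.36 ± 0.04, adjusted p = 1.28e-09), with 13930.4 to 14967 against 18052 to 19258 normalized counts. ATG14 (0.808 of its MB468 level, adjusted p = 0.0116), ULK1 (0.847, 0.00736) and WIPI1 (0.861, 0.00518) were lower as well. ATG16L1 was higher at 1.13 of MB468 (adjusted p = 0.00437), but its libraries overlapped, and the call was lost without replicate 3 of MB468 (adjusted p = 0.0603) or replicate 1 of MB468res-R8 (0.121). The ULK1 call was lost without replicate 1 of MB468res-R8 (adjusted p = 0.0544). With spike-in scaling 9 genes were called lower and ATG16L1 had a log2 fold change of -0.13 (adjusted p = 0.399), on a median of all genes of -0.31.

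At 12 h in Met-Hcy+ medium, most of the 10 RNAs were lower than at 0 h in both lines. WIPI1 and ULK1 had the largest falls in both lines, followed by GABARAPL1 in MB468res-R8 and by BNIP3L in MB468. GABARAPL1 kept 87.1% of its 0 h level in MB468. In MB468, 8 of 10 genes fell and 0 rose, where 70.8% of all genes tested were called, 34.7% lower and 36.1% higher. In MB468res-R8, 8 fell and 1 rose, where 61.3% were called, 31.1% lower and 30.2% higher. The 0 and 12 h libraries did not overlap for 8 genes in MB468 and 9 in MB468res-R8, as was so for 74.9% and 64.6% of all genes. Over the 10 genes the median log2 fold change was -0.22 in MB468 and -0.56 in MB468res-R8, against 0.01 and -0.02 over all genes. With spike-in scaling 9 fell in MB468 and 7 in MB468res-R8 with 0 rises in either line, and the medians lay at -0.22 and -0.53 relative to all genes. The comparisons at 0.5, 2 and 12 h share their 0 h libraries within a line. The plot of libraries by time shows all 10 genes, and their values are given next by role.

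**Figure D2:**
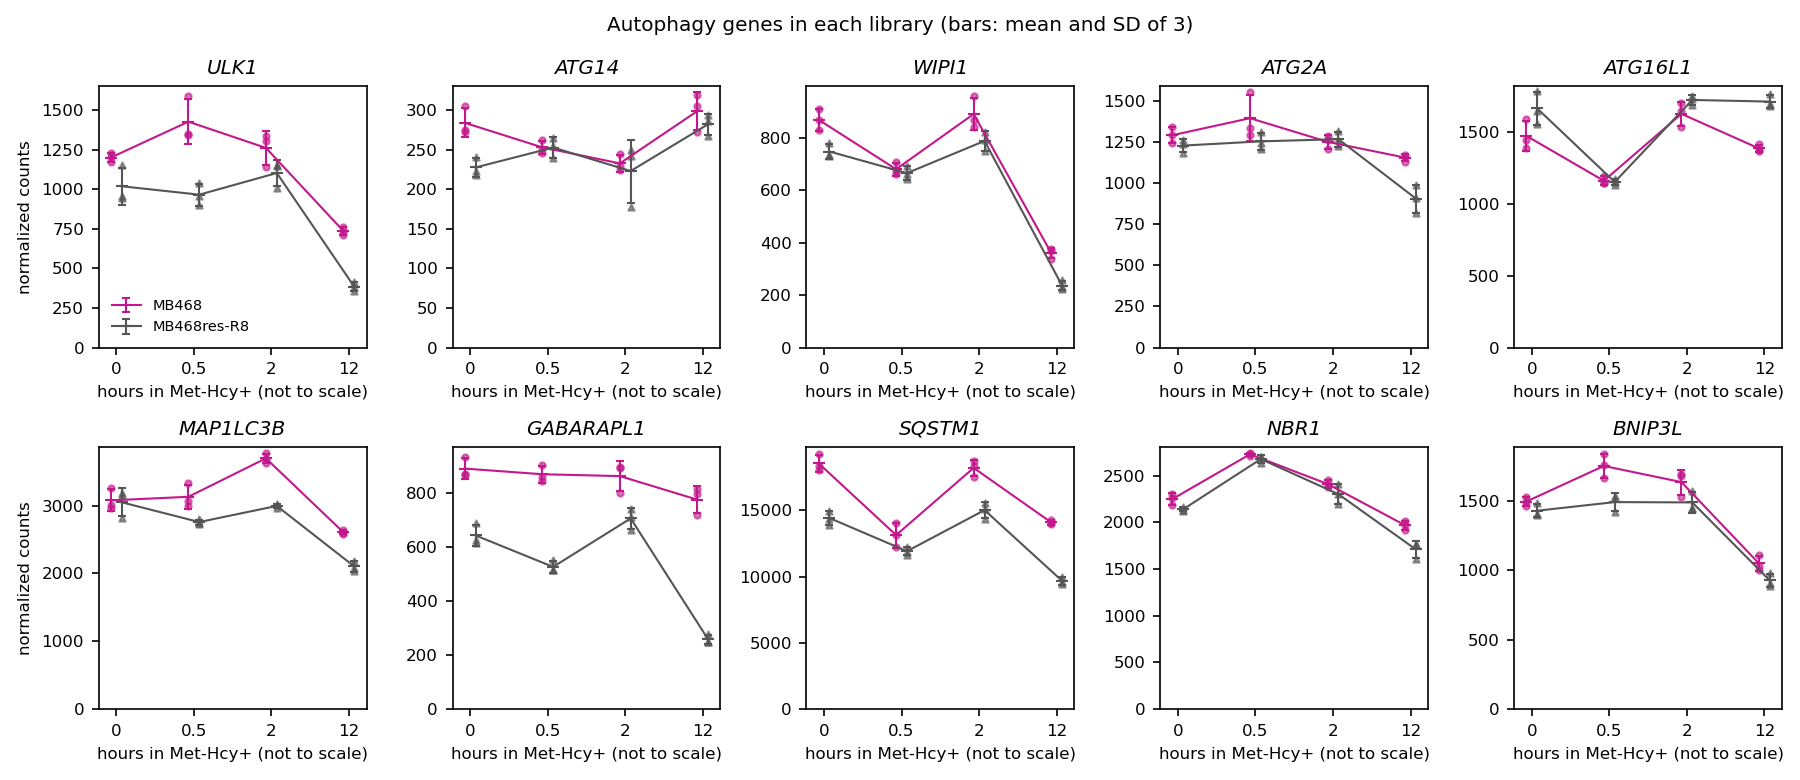
Normalized counts of the 10 genes by hours in Met-Hcy+ medium (0 h is Met+), with points for the 3 libraries of a group and bars for mean and SD, in MB468 (magenta circles) and MB468res-R8 (gray triangles). The time axis is not to scale. WIPI1 and ULK1 drop in both lines by 12 h, whereas the mean of GABARAPL1 goes from 643 to 258 in MB468res-R8 and to 775, from 889.7, in MB468.

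ULK1 encodes the kinase that starts autophagosome formation. MB468 had 1227, 1204 and 1171 normalized counts at 0 h and 764, 714 and 730.0 at 12 h. The libraries of MB468res-R8 had 948, 1154 and 956 at 0 h and 415, 356 and 380.4 at 12 h. The 12 h libraries of MB468res-R8 were the lowest of all 24, below those of MB468 at 12 h, and the groups did not overlap. ULK1 fell, with log2 fold changes of -0.70 ± 0.08 in MB468 (adjusted p = 1.99e-10) and -1.40 ± 0.08 in MB468res-R8 (9.35e-17). At 0.5 h ULK1 rose in MB468, with 1349.6, 1341 and 1591 normalized counts (log2 fold change 0.24 ± 0.07, adjusted p = 0.0116), and in MB468res-R8 its log2 fold change was -0.08 ± 0.08 (0.476). The 0.5 h rise in MB468 was lost without replicate 3 of 0.5 h (adjusted p = 0.0962) or replicate 3 of 0 h (0.0601), and with spike-in scaling it was 0.02 (0.920).

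ATG14 encodes the subunit that directs the PI3 kinase complex to autophagosome formation, and it was the gene called higher at 12 h in MB468res-R8. It had 241, 218 and 224 normalized counts at 0 h and 293, 268 and 286 at 12 h in MB468res-R8, without overlap. In MB468 it had 275, 273 and 305 at 0 h and 272, 319 and 305 at 12 h, which overlapped. The log2 fold change was 0.31 ± 0.10 in MB468res-R8 (adjusted p = 0.00984) and 0.07 ± 0.10 in MB468 (0.512), and the difference between the lines, 0.23 ± 0.14, was not called (0.167). With spike-in scaling the rise in MB468res-R8 was 0.32 (adjusted p = 0.0996). The 12 h libraries of the lines overlapped, at 299 ± 24.4 normalized counts for MB468 and 282 ± 13.2 for the R8 clone (SD, n = 3).

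WIPI1 encodes a PI3P-binding protein of the forming autophagosome, and it had the largest fall of the 10 genes in each line. The libraries of MB468 had 912, 829 and 868 normalized counts at 0 h and 367, 376 and 339.6 at 12 h. In MB468res-R8 it had 729.6, 781 and 735 at 0 h and 232, 256 and 222 at 12 h. The groups were far apart, with no 12 h library above 376 and no 0 h library below 729.6. WIPI1 fell, with log2 fold changes of -1.27 ± 0.07 in MB468 (adjusted p = 9.32e-20) and -1.66 ± 0.07 in MB468res-R8 (1.09e-21). It had also been lower at 0.5 h in MB468, at 672, 709 and 662 normalized counts (log2 fold change -0.35 ± 0.07, adjusted p = 4.81e-05), and was back at 961, 843 and 870.2 at 2 h, overlapping 0 h. With spike-in scaling the 2 h value in MB468 was called lower (-0.39, adjusted p = 0.0122), on a median of all genes of -0.42. In MB468res-R8 the 0.5 h fold change of -0.17 ± 0.07 was barely called (adjusted p = 0.0482), and the call was lost when any of the 6 libraries other than replicate 3 of 0.5 h was left out (0.0603 to 0.183).

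ATG2A encodes a protein that transfers lipid to the growing membrane. It had 1341, 1242 and 1293 normalized counts at 0 h and 1174, 1130.4 and 1162 at 12 h in MB468. For MB468res-R8 the values were 1185, 1238 and 1263 at 0 h and 991, 819.9 and 907 at 12 h. It fell, with log2 fold changes of -0.16 ± 0.06 in MB468 (adjusted p = 0.0164) and -0.43 ± 0.06 in MB468res-R8 (9.86e-08), without overlap in either line. At 0.5 and 2 h it was not called in either line with TMM, with log2 fold changes from -0.05 to 0.10. With spike-in scaling it was called lower at 2 h in MB468 (-0.47, adjusted p = 0.00232), on a median of all genes of -0.42.

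ATG16L1 encodes the part of the conjugation machinery that places ATG8 proteins on the membrane, and its lowest level was at 0.5 h. At 0.5 h it had 1143, 1195 and 1143 normalized counts in MB468 against 1444, 1589.6 and 1386 at 0 h. In MB468res-R8 it had 1131, 1154 and 1170.4 at 0.5 h against 1787, 1649 and 1555 at 0 h. These 6 libraries at 0.5 h were the lowest of the 24 for ATG16L1, and the log2 fold change was -0.35 ± 0.05 in MB468 (adjusted p = 1.46e-06) and -0.54 ± 0.05 in MB468res-R8 (6.99e-11). At 12 h it was not called, at -0.09 ± 0.05 in MB468 (adjusted p = 0.0979) and 0.04 ± 0.05 in MB468res-R8 (0.552). The 12 h value in MB468 was near the threshold and was called lower in 8 of 15 alternatives: DESeq2's size factors (-0.12, adjusted p = 0.0382) or Wald test (0.0418), spike-in scaling (-0.32, 0.0272), the compared groups alone (0.0489), at least 10 counts in every library (0.0419), another TMM reference library (0.0362), and without replicate 1 (0.0354) or 3 (0.013) of 0 h.

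MAP1LC3B encodes LC3B, the ATG8 protein used most as an autophagosome marker. In MB468 it had 3002, 2965 and 3262 normalized counts at 0 h, 3692, 3628 and 3769 at 2 h, and 2636, 2577 and 2599.8 at 12 h. The counts of MB468res-R8 were 3152, 3179 and 2813 at 0 h, 3006, 3021 and 2957 at 2 h, and 2039, 2184 and 2081 at 12 h. The 2 h libraries of MB468 were the highest and the 12 h libraries of MB468res-R8 the lowest of the 24. MAP1LC3B rose at 2 h in MB468 by 0.27 ± 0.05 on the log2 scale (adjusted p = 2.45e-05) and had -0.03 ± 0.05 in MB468res-R8 (0.899), a difference between the lines of -0.30 ± 0.06 (0.00236). Without replicate 2 of MB468 at 2 h these were 0.28 (adjusted p = 1.0e-04) and -0.31 (0.0035). With spike-in scaling the 2 h value in MB468 was -0.16 (adjusted p = 0.276), on a median of all genes of -0.42, and the difference was 0.09 (0.709). At 12 h MAP1LC3B fell, at -0.24 ± 0.05 in MB468 (adjusted p = 1.44e-05) and -0.54 ± 0.05 in MB468res-R8 (4.59e-13).

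GABARAPL1 encodes an ATG8 protein of the GABARAP branch, and the difference of its 12 h response between the lines was the largest of the 10. In MB468res-R8 it had 688, 624 and 616 normalized counts at 0 h, 550.5, 514 and 513 at 0.5 h, 711, 663 and 742 at 2 h, and 248, 277 and 248 at 12 h. MB468 had 867, 869 and 933 at 0 h and 812, 795 and 717 at 12 h. The 12 h libraries of MB468res-R8 lay far below the other 21, while those of MB468 at 12 h lay just below 0 h. GABARAPL1 fell, with log2 fold changes of -1.33 ± 0.08 in MB468res-R8 (adjusted p = 2.78e-18) and -0.20 ± 0.07 in MB468 (0.00733), where the call was lost without replicate 3 of 12 h (0.0608). At 0.5 h it fell in MB468res-R8, at -0.29 ± 0.07 (adjusted p = 0.00118), with -0.04 ± 0.07 in MB468 (0.742), but this difference between the lines was not called (-0.26 ± 0.10, 0.198), and with spike-in scaling neither was the fall (-0.24, 0.324).

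SQSTM1 encodes p62, a cargo receptor that is itself degraded by autophagy. In MB468 it had 18052, 18371 and 19258 normalized counts at 0 h, 13125, 12201 and 14085 at 0.5 h, 18737, 18366 and 17534 at 2 h, and 14286, 13969 and 14024 at 12 h. MB468res-R8 had 14382, 14967 and 13930.4 at 0 h, 11832, 11655 and 12272 at 0.5 h, 15099, 15596 and 14376 at 2 h, and 9999.6, 9467 and 9581 at 12 h. In both lines it was lower at 0.5 h, overlapped 0 h at 2 h, and was lower again at 12 h. With spike-in scaling SQSTM1 was called lower at 2 h too in MB468 (-0.44, adjusted p = 0.00205), on a median of all genes of -0.42. The log2 fold change at 0.5 h was -0.50 ± 0.04 in MB468 (adjusted p = 1.02e-12) and -0.28 ± 0.04 in MB468res-R8 (1.18e-06, and 0.266 with spike-in scaling). Its difference between the lines was called at 0.22 ± 0.06 (adjusted p = 0.0261), but not without replicate 3 of MB468 at 0 h, replicate 3 of MB468res-R8 at 0 h, replicate 2 of MB468 at 0.5 h or replicate 3 of MB468res-R8 at 0.5 h (0.0525 to 0.131). At 12 h the log2 fold change was -0.40 ± 0.04 in MB468 (adjusted p = 5.38e-11) and -0.58 ± 0.04 in MB468res-R8 (5.25e-15).

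NBR1 encodes a further receptor for ubiquitinated cargo, and it rose at 0.5 h in both lines before falling. The libraries of MB468 had 2260.3, 2305 and 2184 normalized counts at 0 h, 2737, 2711 and 2739 at 0.5 h, and 1967, 1921 and 2018 at 12 h. In MB468res-R8 it had 2134, 2166 and 2123 at 0 h, 2704, 2633 and 2697 at 0.5 h, and 1607, 1756 and 1765 at 12 h. The 6 libraries at 0.5 h were the highest and the 6 at 12 h the lowest of the 24. The 0.5 h rise was 0.28 ± 0.04 on the log2 scale in MB468 (adjusted p = 1.43e-06) and 0.32 ± 0.04 in MB468res-R8 (6.28e-08), and with spike-in scaling 0.06 (0.757) and 0.37 (0.0365). The 12 h values were -0.19 ± 0.04 (adjusted p = 0.00011) and -0.33 ± 0.04 (2.85e-08), and with spike-in scaling that of MB468res-R8 was not called (-0.30, 0.0565).

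BNIP3L (chromosome 8, 26383054-26505636, GRCh38) encodes NIX, a receptor on mitochondria that are to be removed by autophagy. In MB468 it had 1529, 1461 and 1492 normalized counts at 0 h, 1834, 1755 and 1664 at 0.5 h, and 1111, 1032 and 1002 at 12 h. The libraries of MB468res-R8 had 1481, 1396 and 1408 at 0 h, 1519.6, 1536 and 1416 at 0.5 h, and 889.6, 906 and 982 at 12 h. The 12 h libraries were below all others in both lines, and only in MB468 were the 0.5 h libraries clear of 0 h. BNIP3L fell at 12 h, with log2 fold changes of -0.51 ± 0.05 in MB468 (adjusted p = 5.50e-11) and -0.63 ± 0.06 in MB468res-R8 (1.15e-12), with no called difference between the lines (-0.12 ± 0.08, 0.201). At 0.5 h it rose in MB468 (0.23 ± 0.05, adjusted p = 0.000546; 0.02 with spike-in scaling, 0.939), with 0.06 ± 0.05 in MB468res-R8 (0.437), and this difference was not called either (-0.17 ± 0.08, 0.294).

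Counted over the 10 genes, the 0.5 h responses were mixed and the 2 h responses small. At 0.5 h in MB468, 3 genes rose (ULK1, NBR1 and BNIP3L) and 3 fell (SQSTM1, WIPI1 and ATG16L1), where 33.9% of all genes were called (17.6% higher and 16.4% lower) and the groups did not overlap for 7 of the 10 and for 43.4% of all genes. At 0.5 h in MB468res-R8, 1 rose (NBR1) and 5 fell (ATG16L1, SQSTM1, GABARAPL1, MAP1LC3B and WIPI1), where 33.7% of all genes were called (17.4% higher and 16.3% lower) and 6 of the 10 and 45% of all genes did not overlap. The MAP1LC3B fall there was -0.15 ± 0.05 (adjusted p = 0.0114) and was lost without replicate 1 or 2 of 0 h (0.0797 and 0.0857). With spike-in scaling 3 fell in MB468 and 1 rose and 1 fell in MB468res-R8. At 2 h in MB468, 1 gene was called (MAP1LC3B), where 16.3% of all genes were (8.88% higher and 7.47% lower), and 4 of the 10 and 29.2% of all genes did not overlap. With spike-in scaling 8 of the 10 were called lower at 2 h in MB468. The 10 had a median of 0.05 relative to all genes, which had a median of -0.42. Of all 14741 genes 9511 were then called, 2.52% of them higher. Without replicate 2 of MB468 at 2 h, MAP1LC3B remained the 1 gene called, and the other 9 had log2 fold changes from -0.32 (ATG14, adjusted p = 0.0735) to 0.13 (ATG16L1, 0.169). At 2 h in MB468res-R8, 0 genes were called by edgeR and 0 by DESeq2, with 1 at an unadjusted p under 0.05 (NBR1), where 4.37% of all genes were called (2.52% higher and 1.85% lower) and 1 of the 10 and 17.8% of all genes did not overlap.

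**Figure D3:**
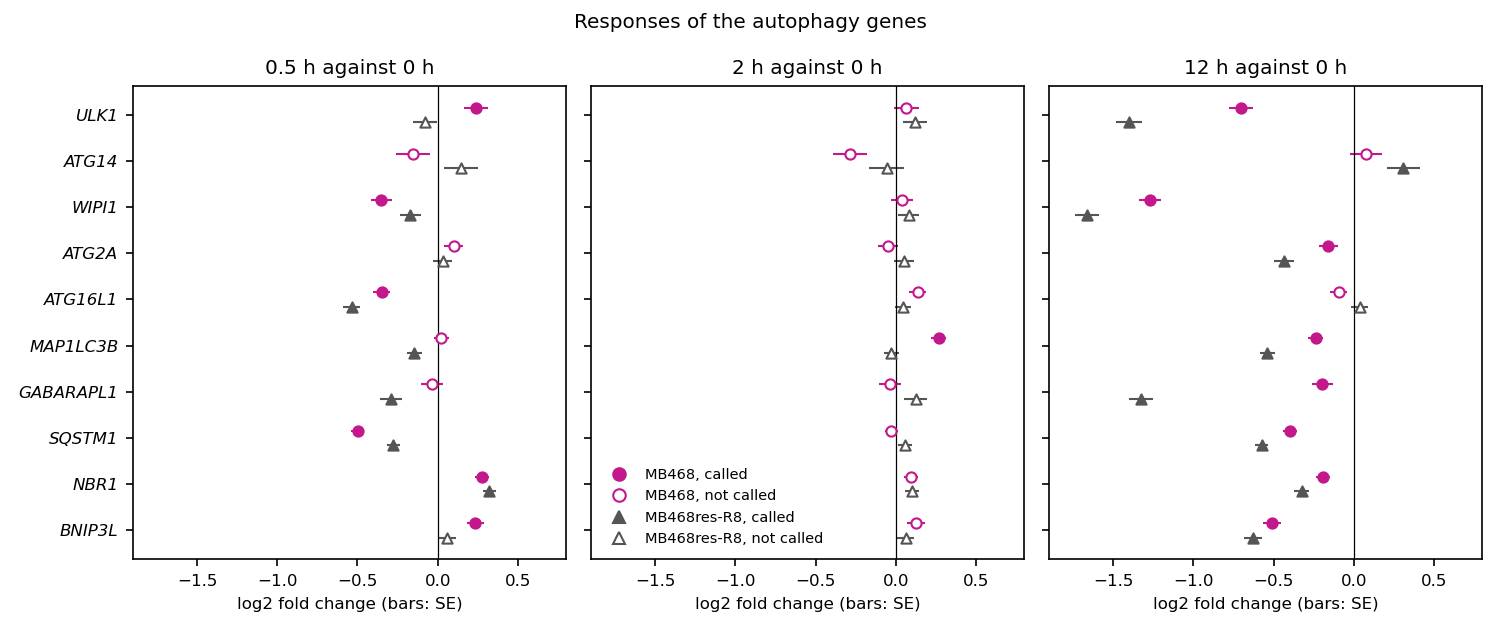
Log2 fold change of the 10 genes at 0.5, 2 and 12 h against 0 h (x axis) in MB468 (circles) and MB468res-R8 (triangles), with bars for SE and filled symbols for genes called by edgeR. At 12 h the symbols of 8 genes lie left of 0 in both lines, and those of ULK1 and GABARAPL1 lie furthest apart.

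The test of the difference between the lines asked whether the response of MB468res-R8 differed from that of MB468. At 12 h it was called for 6 of the 10 genes, all with a lower response in MB468res-R8, where 56.5% of all genes were called, 26.2% higher and 30.3% lower. These were GABARAPL1 (-1.13 ± 0.10, adjusted p = 1.55e-12), ULK1 (-0.70 ± 0.11, 1.92e-06), WIPI1 (-0.39 ± 0.10, 0.00105), MAP1LC3B (-0.30 ± 0.07, 0.000118), ATG2A (-0.27 ± 0.09, 0.00589) and SQSTM1 (-0.18 ± 0.06, 0.0101). The median over the 10 genes was -0.23, against -0.05 over all genes. The SQSTM1 call was lost without replicate 1 or 2 of 0 h in either line or without replicate 2 or 3 of MB468res-R8 at 12 h (adjusted p up to 0.155), and with another reference library for the TMM factors (-0.13, 0.0557). ATG16L1, not called with TMM (0.13 ± 0.07, 0.122), was called in the opposite direction with that other reference library (0.18, 0.0345) and without replicate 1 or 3 of MB468 at 0 h, replicate 1 of MB468res-R8 at 0 h, or replicate 2 or 3 of MB468res-R8 at 12 h (0.18 to 0.23). The ATG2A call was lost without replicate 2 of MB468 at 0 h (0.0645) or replicate 2 of MB468res-R8 at 12 h (0.0994). With spike-in scaling the median of all genes was 0.20, and 5797 of all 14741 were called, 69.9% of them higher. Of the 10 genes only GABARAPL1 was then called (-0.87, adjusted p = 0.000126), while ULK1 was at -0.45 (0.0541) and SQSTM1 at 0.08 (0.768). At 0.5 h the difference was called for 1 gene (SQSTM1) and at 2 h for 1 (MAP1LC3B), where 2.9% (1.2% higher and 1.7% lower) and 5.07% (2.19% higher and 2.88% lower) of all genes were called.

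**Figure D4:**
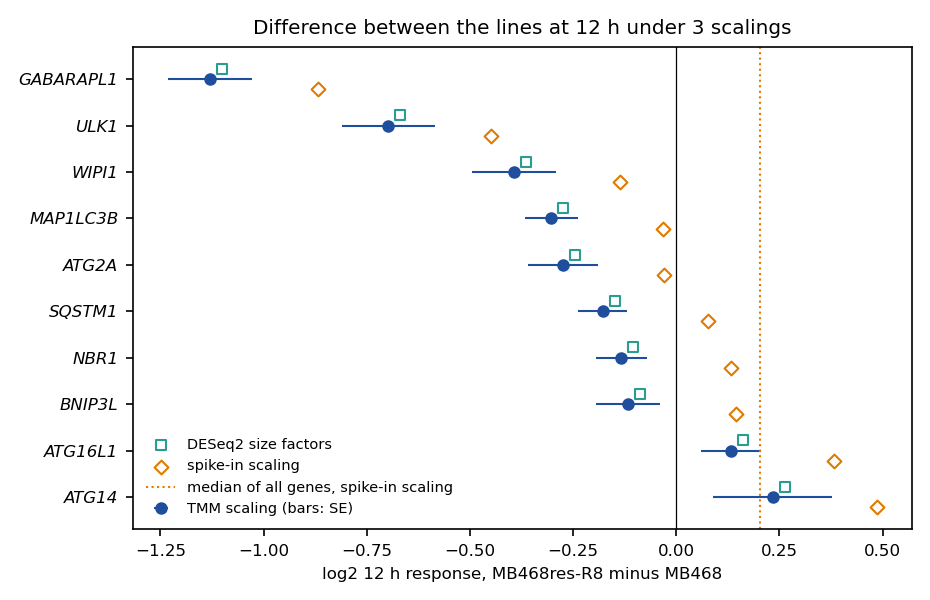
The 12 h response (log2) of MB468res-R8 minus that of MB468 for each gene, with TMM factors (circles, bars for SE), DESeq2 size factors (squares) and spike-in scaling (diamonds). GABARAPL1 lies at -1.13 with TMM and -0.87 with spike-ins, and the dotted line marks the spike-in median of all genes, 0.20.

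A wider list of 74 autophagy genes, the 10 included, was grouped by role, and 70 of them were tested. The 60 genes outside the 10 moved in both directions at 12 h, with 29 rises and 19 falls in MB468 and 17 rises and 26 falls in MB468res-R8, and medians of 0.13 and -0.05. These were 80.0% of the 60 called in MB468 (48.3% higher and 31.7% lower) and 71.7% in MB468res-R8 (28.3% and 43.3%), beside 70.8% (36.1% and 34.7%) and 61.3% (30.2% and 31.1%) of all genes. The difference between the lines was called for 40 of the 60 (66.7%), of which 29 were lower in MB468res-R8 (48.3%), beside 56.5% and 30.3% of all genes. With spike-in scaling the list of 70 had 11 rises and 29 falls in MB468, 7 and 21 in MB468res-R8, and 11 higher and 12 lower differences between the lines, against 29 and 27, 18 and 34, and 11 and 35 with TMM.

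The counts by role stand beside the all-gene shares given above for TMM and the all-gene calls given above for spike-in scaling. Each role holds few genes. The ATG8 family fell in 5 of 5 tested members in MB468 and 4 of 5 in MB468res-R8 (5 and 3 with spike-in scaling). Of the 5 genes of the initiation complex, 3 rose in MB468 and ULK1 was the 1 that fell, whereas in MB468res-R8 1 rose and 2 fell (2 rises and 1 fall, and 1 and 2, with spike-in scaling). ATG13, a subunit that binds ULK1, had 3381 ± 148 normalized counts (SD, n = 3) in MB468 at 0 h and 4594 ± 38.4 at 12 h, against 3009 ± 32.3 and 2278 ± 40.6 in MB468res-R8. These counts are scaled by TMM. The median log2 fold change of the 5 initiation genes at 12 h in MB468 was 0.44 with TMM and 0.21 with spike-in scaling. RB1CC1 and ATG101 rose further than ATG13 in MB468, to 171% and 203% of 0 h, and were at 130% and 90.2% in MB468res-R8. The 5 transcription factors known to drive autophagy genes had 3 rises and 0 falls in MB468 and 1 rise and 2 falls in MB468res-R8, and their difference between the lines was called lower for 5 of 5 (2 of 5 with spike-in scaling). Of the 6 ER-phagy receptors, which mark endoplasmic reticulum for removal, 4 rose and 2 fell in MB468 and 1 rose and 5 fell in MB468res-R8. With spike-in scaling 1 rose and 2 fell in MB468, and 1 rose and 3 fell in MB468res-R8.

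Among called genes without overlap, the largest rises of the 60 at 12 h in MB468 were those of MITF, a transcription factor of the TFEB family (log2 fold change 2.00 ± 0.11), ZFYVE1, a PI3P-binding protein of the site where autophagosomes form (1.46 ± 0.09), and NRBF2, a subunit of the PI3 kinase complex (1.27 ± 0.06). The largest falls were those of the ER-phagy receptor RTN3 (-0.77 ± 0.04), VAMP8, a protein of fusion with the lysosome (-0.72 ± 0.04), and MAP1LC3B2 (-0.69 ± 0.18), whose reads may be shared with MAP1LC3B. In MB468res-R8 the largest rises were those of MITF (0.53 ± 0.12), EPG5, a tether for fusion (0.48 ± 0.07), and the mitophagy receptor BNIP3 (0.39 ± 0.07). The largest falls there were those of ATG16L2, a relative of ATG16L1 (-1.25 ± 0.16), the ER-phagy receptor CALCOCO1 (-1.20 ± 0.09) and RUBCN, an inhibitor of the PI3 kinase complex (-0.97 ± 0.06). All 12 of these kept their direction and call with spike-in scaling.

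The difference between the lines at 12 h was lowest in ZFYVE1 (-1.75 ± 0.13), MITF (-1.47 ± 0.16) and the ER-phagy receptor CCPG1 (-1.22 ± 0.16), and highest in VAMP8 (0.45 ± 0.06), PHB2, a mitophagy receptor of the inner membrane (0.44 ± 0.06), and RTN3 (0.41 ± 0.05). ZFYVE1 had 272, 232 and 260.0 normalized counts at 0 h and 736, 678 and 674 at 12 h in MB468. In MB468res-R8 it had 242, 217 and 256 at 0 h and 176, 213 and 195 at 12 h, so that its 12 h libraries lay above those of 0 h in MB468 and below them in MB468res-R8. At 2 h in MB468, 9 of the 70 genes rose and 2 fell, beside 8.88% and 7.47% of all genes. With spike-in scaling 0 rose and 58 fell, where 9511 of all 14741 genes were called, 2.52% of them higher. MITF (0.61 ± 0.13) and ATG4C, a protease that processes ATG8 proteins (0.33 ± 0.10), rose with TMM, but with spike-in scaling MITF was at 0.20 (adjusted p = 0.304) and ATG4C at -0.08 (0.671). EPG5 (-0.32 ± 0.07) and the cargo receptor TOLLIP (-0.27 ± 0.07) fell, and with spike-in scaling they were at -0.73 and -0.69 and still called. Without replicate 2 of MB468 at 2 h, 6 genes were called, among them MITF (0.50, adjusted p = 0.0106), EPG5 (-0.39, 0.000296) and TOLLIP (-0.29, 0.00511), while ATG4C was not (0.31, 0.074). At 2 h in MB468res-R8, RUBCN was the 1 gene of the 70 called (0.26 ± 0.06), where 4.37% of all genes were called, and with spike-in scaling it was not (0.21, adjusted p = 1).

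**Figure D5:**
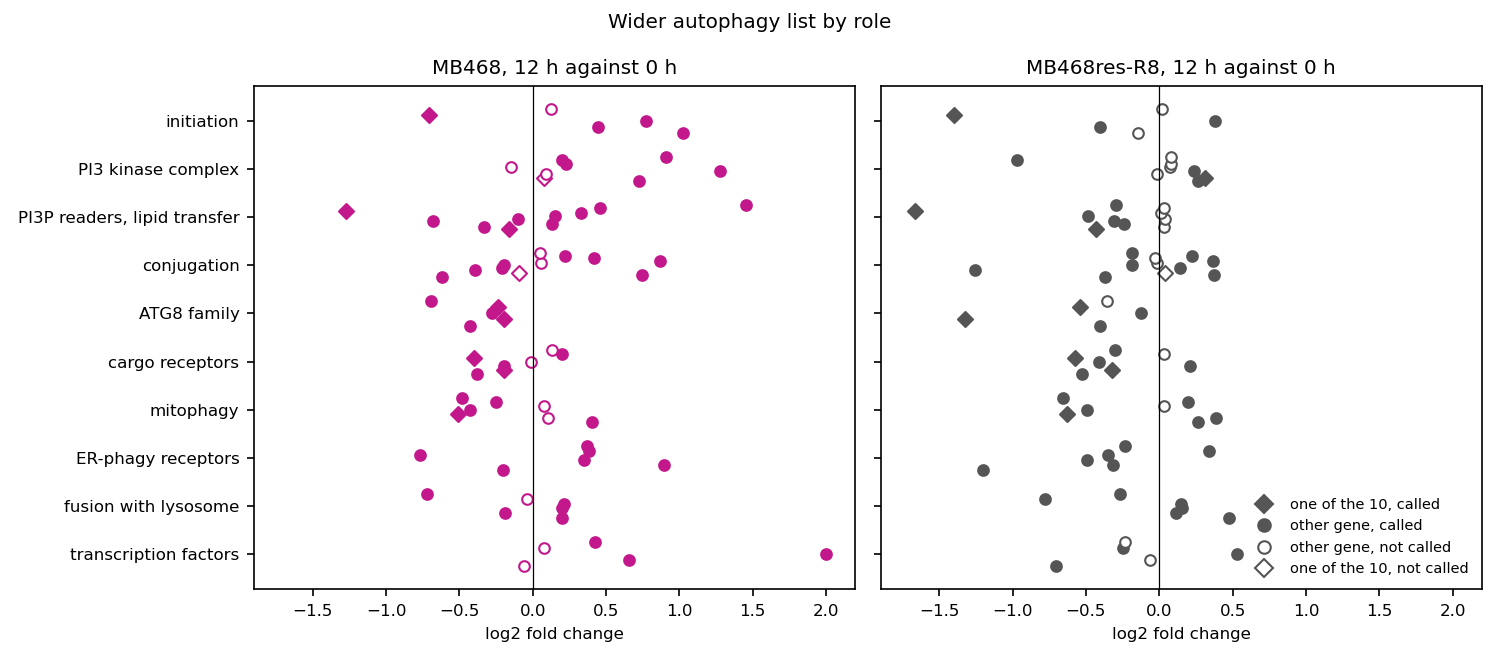
Log2 fold change at 12 h against 0 h (x axis, TMM scaling) of 70 autophagy genes by role (rows) in MB468 (left) and MB468res-R8 (right), with diamonds for the 10 genes, circles for the other 60 and filled symbols for genes called by edgeR. In MB468 many initiation and PI3 kinase genes lie right of 0, up to 1.27 for NRBF2, with ULK1 at -0.70 on the other side.

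Across the 24 libraries, 8 of the 10 genes varied together to differing degrees, and ATG14 and ATG16L1 did not follow them. The 8 were set apart on these same values, so their r is no test of a group. Over the 28 pairs among the 8, Pearson's r of log2 CPM ran from 0.32 (NBR1 with SQSTM1) to 0.94 with a median of 0.81. ATG14 had r from -0.55 to -0.17 and ATG16L1 from -0.63 to 0.15 with the others. These points share libraries and groups, so r is a description. Among the 9860 genes whose log2 CPM averaged 3 or more, those most like ULK1 were MCF2L (r = 0.984) and AKR1C2 (0.974), those most like WIPI1 were ANK3 (0.984) and RCAN1 (0.974), and those most like GABARAPL1 were SLC16A4 (0.965) and UNC5B (0.962). SQSTM1 was closest to EPPK1 (0.961) and STK40 (0.960), NBR1 to FOSB (0.971) and GLTP (0.957), BNIP3L to GLUL (0.965) and LDLRAD4 (0.962), and MAP1LC3B to KDM6B (0.946) and SLC6A14 (0.938). ATG2A was closest to ULK1 (0.942) and NUPR1 (0.937), ATG16L1 to HRH1 (0.945) and CCL22 (0.924), and ATG14 to SIX4 (0.798) and ZNF234 (0.795), the weakest likeness of the 10.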

How the data were processed

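RNA was sequenced from poly(A)-selected libraries with ERCC spike-ins. The authors aligned reads with HISAT2 2.1.0 to GRCh38/hg38 and counted them per gene with featureCounts (Subread 1.5.3), and the deposited counts (26645 genes, with 92 spike-ins kept apart) were used here. A table of counts scaled by the authors and one of their own comparisons were not used. In R 4.3.3, edgeR 4.0.16 kept 14741 genes (filterByExpr, count 10, total 15), and a quasi-likelihood model with 8 group means and TMM factors gave 10 contrasts with Benjamini-Hochberg adjustment over all tested genes. On simulated counts for the MB468 12 h contrast it recovered 69% of 100 genes changed by 0.5 and 85% of 100 changed by 1 on the log2 scale. Of the simulated calls, 3.75% were unchanged genes. No other gene of the 14741 was changed, whereas 70.8% were called in the real contrast, so these recoveries need not hold for it. Alternatives were DESeq2 1.42.0, other scalings, filters and thresholds, a replicate block and each library left out. Another TMM reference library and the TGACGTCA motif were choices made with the data in view. The 10 genes and the lists were chosen with earlier results of these data known. Beyond the 10, genes of the wider list were named by rank of log2 fold change among called genes, and ATG13 was named outside this rule. Within a line the ranked genes also had groups without overlap, which was not asked of the difference between the lines. Genes of like profile were named by r.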

Additional observations from a re-analysis of the deposited data

Results flagged for a closer look

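Responses that differed between the lines by a test of the difference itself (edgeR's contrast of the responses, adjusted over all genes) were those of SQSTM1 at 0.5 h (0.22, MB468res-R8 minus MB468, log2), of MAP1LC3B at 2 h (-0.30), and at 12 h of GABARAPL1 (-1.13), ULK1 (-0.70), WIPI1 (-0.39), MAP1LC3B (-0.30), ATG2A (-0.27) and SQSTM1 (-0.18). Both SQSTM1 differences, the MAP1LC3B differences and those of WIPI1, ATG2A and ULK1 were not called with spike-in scaling, and that of GABARAPL1 at 12 h was.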

How the results depend on the processing

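With DESeq2 (size factors or Wald test), the groups compared fitted alone, at least 10 counts in every library, and another TMM reference library, the counts of calls among the 10 genes and the wider list stayed within 1.5 times the reported ones. Spike-in scaling moved 14 of 20 counts. For the 10 genes they became 3 (MB468 0.5 h), 8 (MB468 2 h), 2 (MB468res-R8 0.5 h), and 0, 0 and 1 for the difference between the lines at 0.5, 2 and 12 h, and for the wider list 13 (MB468 0.5 h), 58 (MB468 2 h, 0 of them higher), 12, 0 and 28 (MB468res-R8 0.5, 2 and 12 h), and 0, 1 and 23 for the differences. It also turned the sign of ULK1 (-0.35), WIPI1 (-0.39), MAP1LC3B (-0.16), NBR1 (-0.32) and BNIP3L (-0.29) at 2 h in MB468, of ATG16L1 between the lines at 0 h (-0.13), and of the line difference for MAP1LC3B at 2 h (0.087) and SQSTM1 at 12 h (0.077), and the cause was not tested. Without a filter, 2 genes of the wider list were called at 2 h in MB468res-R8, and 2 of the 10 for the difference at 0.5 h. At an adjusted p of 0.01, the wider list had 6 calls at 2 h in MB468 and 1 for the difference at 0.5 h, where the 10 had 0.

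Leaving out 1 library at a time gave, for the 10 genes, 1 to 2 calls at 2 h in MB468 and 0 to 1 for the difference at 0.5 h, and for the wider list 19 to 26 at 0.5 h and 6 to 11 at 2 h in MB468 and 1 to 2 at 2 h in MB468res-R8. The libraries behind moves of over 1.5 times were replicate 1 of MB468 at 0.5 h for the 19, replicate 2 at 2 h (6) and replicate 1 at 0 h (7) for the MB468 2 h list, and replicate 2 at 0 h or 1 at 2 h for the 2 genes. In MB468res-R8 they were replicate 3 at 0 h or 1 at 2 h. Replicates with the same number did not deviate together in every pair (r from -0.50 to 0.47), so the numbers were not taken to pair the libraries, and with a replicate block the 10 genes kept their calls but for WIPI1 at 0.5 h in MB468res-R8 (-0.17, adjusted p = 0.0517). Of the 10 genes ATG14 had the fewest counts.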
